A study of Cordyceps militaris with 6 samples.

Results

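Genes annotated as photoreceptors, photolyases, clock or carotenoid genes were followed in dark-grown mycelium of Cordyceps militaris, an insect-pathogenic ascomycete cultivated for its fruiting bodies. Members are all genes whose deposited product description contains one of the terms white collar, phytochrome, cryptochrome, photolyase, opsin, phytoene, carotenoid, carotene or frequency clock. The rule found 9 of 10385 genes. Cryptochrome matched 2 genes, opsin 2, carotenoid 2, and photolyase, phytoene and frequency clock 1 each. White collar, phytochrome and carotene matched 0 descriptions, which says how the products were worded and not which genes the fungus has. The word opsin was met within rhodopsin, and "rhodopsin family" names a receptor fold that most of its members use for signals other than light.

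The YCC strain was sampled at passages 1 to 6 of serial subculture, with 1 mycelium library from each passage. Every culture was a shaken liquid one with glucose, peptone, yeast extract, phosphate, magnesium and vitamin B2 (riboflavin), kept without light for 72 h. There was no light-exposed library, so nothing here measures a response to light. The series asks how transcriptomes change as a strain degenerates under subculture. A passage cannot be told apart from its single library.

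In filamentous fungi, blue light is sensed mainly by the white collar complex, a flavin-binding GATA factor and its partner, which switches on carotenoid, photolyase and clock genes. In Neurospora the complex also drives the frequency gene in the dark, and the FREQUENCY protein feeds back to inhibit it. Photolyases use light to split ultraviolet damage in DNA, and cryptochromes are their relatives. Cordyceps militaris stays pale in the dark and turns orange with carotenoids in the light.

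Total expected counts per library ran from 9740171 to 13813999. Deposited FPKM (fragments per kilobase of gene, scaled to library size) were not matched in scale between libraries. Over the 8483 genes with a mean FPKM of at least 1, the median gene stood 0.19 to 0.27 log2 units higher in the later libraries than in passage 1 by log2(FPKM + 1). With counts scaled by TMM, a normalisation that centres the bulk of genes, that shift was -0.01 to 0.04. Ratios and tests below therefore use TMM-scaled counts, and FPKM are printed as levels. In bulk mycelium, fewer cells of a type and less RNA per cell cannot be told apart.

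All 9 members had reads in every library, over a range of levels. By mean FPKM, which is per length, the order was CCM_01014 (frequency clock protein, 185.7), CCM_00151 (DNA photolyase, 103), CCM_00774 (cryptochrome DASH, 82.9), CCM_08046 (squalene/phytoene synthase, 28.3), CCM_00987 (rhodopsin family protein, 18.9), CCM_02392 (cryptochrome-2, 9.45), TCONS_00013430 (7-transmembrane receptor of the rhodopsin family, 2.96), CCM_06728 (carotenoid oxygenase, 2.38) and TCONS_00013487 (carotenoid cleavage dioxygenase 1, 1.06). The median over all genes was 17.7. The clock gene was above 93.0% of all genes, the photolyase above 86.8% and cryptochrome DASH above 83.6%, while the carotenoid-cleaving genes were above 23.9% and 18.7%. Of neighbours in this order, the FPKM ranges of the clock gene and the photolyase overlapped, as did those of the photolyase and cryptochrome DASH, and those of the 3 genes at the bottom. The ranges of cryptochrome DASH, CCM_08046, the rhodopsin family protein, cryptochrome-2 and the genes below it did not overlap from one step to the next.

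**Figure D1:**
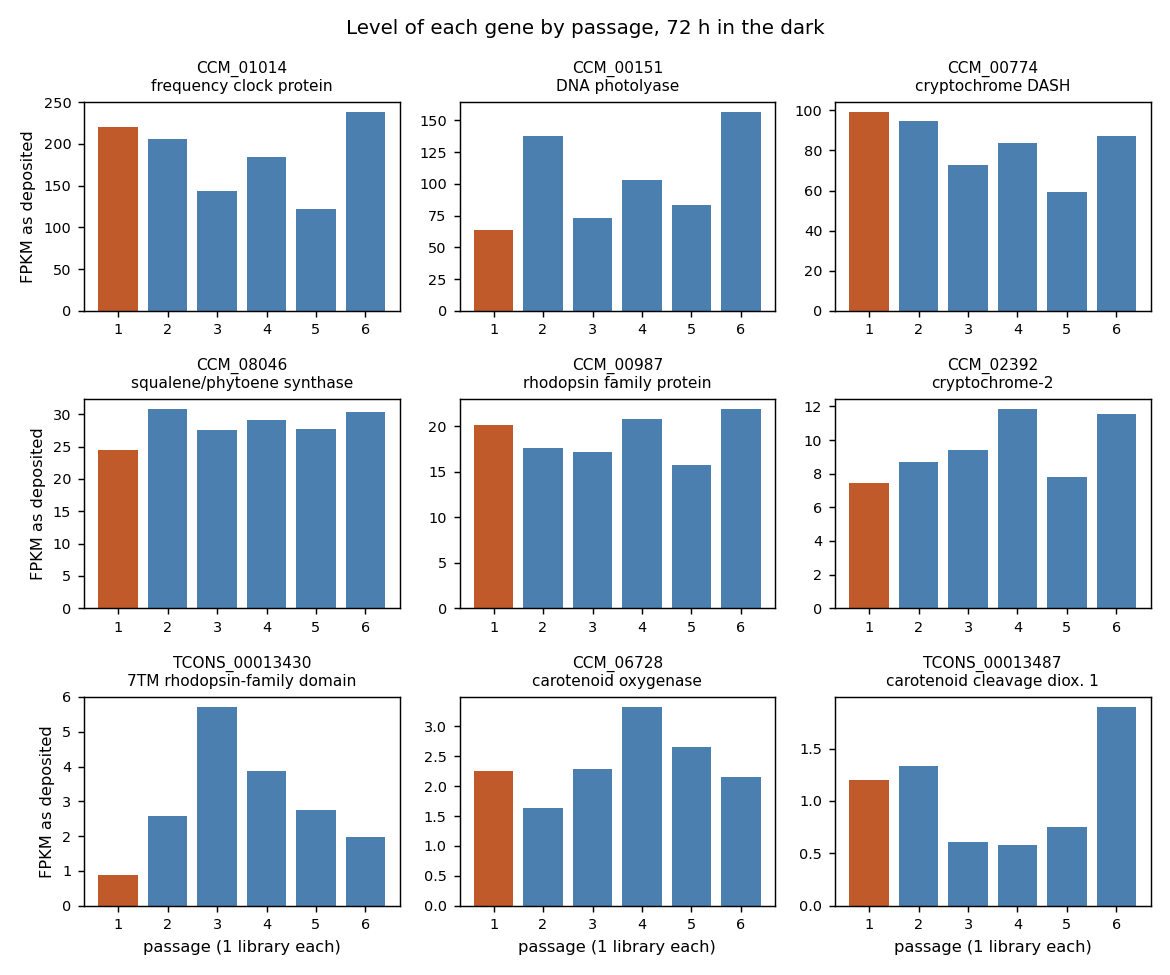
FPKM as deposited (vertical axes from 0, a scale per gene) of the 9 members against passage, 1 library per bar, with passage 1 in orange. The clock gene, the photolyase and cryptochrome DASH have their lowest later bars at passages 3 and 5, and TCONS_00013430 stands at 0.87 in passage 1 and 5.72 in passage 3.

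CCM_01014 encodes the frequency clock protein, whose Neurospora counterpart is the negative element of the circadian clock. It was read at 219.8, 205, 144, 184, 123 and 239 FPKM in passages 1 to 6. Passages 3 and 5 were low and passages 1, 2 and 6 high. Against passage 1, the TMM-scaled level was 0.12 log2 units lower in passage 6 and 1.04 lower in passage 5 (log2 ratio -1.04, 95% counting interval -1.10 to -0.99), and it lay below passage 1 in 5 of 5 later libraries. Once a trend with gene length was removed, it lay above passage 1 in passages 2 (0.08) and 6 (0.32). In passages 3, 4 and 5 it still lay below. By FPKM passage 6 was the highest of the 6, so the order of passages 1 and 6 depends on the scaling.

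CCM_00151, the DNA photolyase, repairs ultraviolet lesions with light energy. Its FPKM were 63.9, 138, 73.1, 103, 83.5 and 157 in passages 1 to 6. It was high in passages 2 and 6 and lowest in passage 1. The TMM-scaled ratio to passage 1 was 1.06 log2 units in passage 6 (interval 0.97 to 1.14) and 0.90 in passage 2 (0.81 to 0.99). In passage 3 it was -0.10 (-0.20 to 0.00), so passage 1 was below all later libraries by FPKM but not by TMM-scaled counts. The authors' deposited table lists this gene in 2 of 5 comparisons with passage 1, with a log2 ratio of 1.11 in passage 2 and 1.29 in passage 6.

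CCM_00774 encodes cryptochrome DASH, a photolyase relative that in several fungi acts on single-stranded DNA or in light signalling. Its FPKM were 99.3, 94.9, 72.95, 83.9, 59.45 and 87.1. Passage 1 was above each later library, and passages 3 and 5 were again the low ones. The TMM-scaled ratio to passage 1 ran from -0.27 in passage 2 to -0.94 in passage 5.

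CCM_02392 encodes cryptochrome-2, from the same protein family. Its FPKM were 7.43, 8.71, 9.39, 11.8, 7.81 and 11.5, from counts of 196 to 425. It was high in passages 4 and 6, with a TMM-scaled ratio to passage 1 of 0.39 (interval 0.14 to 0.64) in passage 4 and 0.40 (0.15 to 0.65) in passage 6. In passages 2, 3 and 5 the counting interval of the ratio included 0.

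The 2 genes matched by opsin differed in level and pattern. CCM_00987, the rhodopsin family protein, was read at 20.1, 17.6, 17.2, 20.8, 15.8 and 21.9 FPKM, a highest-to-lowest ratio of 1.38. TCONS_00013430, a new gene outside the reference annotation, was read at 0.87, 2.57, 5.72, 3.88, 2.76 and 1.98 FPKM, a ratio of 6.57. The median of that ratio over the 8483 genes was 1.93. TCONS_00013430 was lowest in passage 1, highest in passage 3 and lower at each passage after it.

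TCONS_00013430 rested on few reads, with counts of 11, 46, 81, 65, 44 and 35. The TMM-scaled ratio to passage 1 was 2.35 log2 units in passage 3 (95% counting interval 1.51 to 3.48). In passage 6 it was 0.91 (-0.06 to 2.08), an interval that includes 0. The authors' deposited table lists it in 5 of 5 comparisons, with log2 ratios of 1.56, 2.72, 2.16, 1.67 and 1.19 for passages 2 to 6. Those comparisons share the passage 1 library, with its 11 reads.

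Carotenoid synthesis and cleavage were represented by 3 genes. CCM_08046, named for squalene or phytoene synthase, the enzyme class that joins prenyl chains into a carotenoid or sterol precursor, was read at 24.4, 30.8, 27.5, 29.1, 27.65 and 30.35 FPKM. It varied less between libraries than any other member, with a highest-to-lowest ratio of 1.26. In all 5 later libraries the counting interval of its TMM-scaled ratio to passage 1 included 0. The authors' ontology terms for this gene name RNA binding and a ribonucleoprotein complex, which do not belong to a phytoene synthase. Its product name or these terms are thus uncertain. CCM_08047, the reference gene next to it and picked here for its product name, is annotated as 30S ribosomal protein S6. Which annotation is right was not tested.

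CCM_06728 and TCONS_00013487 are annotated as enzymes that cleave carotenoids, and the authors' pathway column places both in carotenoid biosynthesis. CCM_06728 was read at 2.25, 1.63, 2.28, 3.33, 2.66 and 2.15 FPKM, from counts of 45 to 88. TCONS_00013487, also outside the reference annotation, was read at 1.20, 1.33, 0.61, 0.58, 0.75 and 1.90 FPKM, from counts of 8 to 31. CCM_06728 was highest in passage 4, where TCONS_00013487 was lowest. Of the 10 ratios to passage 1 for the pair, the counting interval excluded 0 in passage 2 for CCM_06728 (-0.67, interval -1.30 to -0.05) and, barely, in passage 4 for TCONS_00013487 (-1.23, -2.71 to -0.01).

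Counted at 2-fold or more on TMM-scaled counts, 1 of 9 members was higher than passage 1 in each later library. This was TCONS_00013430 in passages 2 to 5 and the photolyase in passage 6. Over the 8483 genes the share at least 2-fold higher was 9.96%, 12.6%, 10.6%, 12% and 12.1% for passages 2 to 6, in that order. TCONS_00013487 was at least 2-fold lower in passages 3 and 4, where 13.4% and 9.97% of genes were, and the clock gene in passage 5, where 13.4% were. In passages 2 and 6, with 10.9% and 10.8% of genes, 0 members were 2-fold lower. In either direction, 1, 2, 2, 2 and 1 members were 2-fold apart, beside 20.9%, 26%, 20.6%, 25.4% and 22.9% of genes. These shares of the 9 members are near the background.

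The authors' deposited tables list 18.2%, 24.1%, 19.3%, 21.9% and 21.1% of the 10385 genes for passages 2 to 6. They list 2, 1, 1, 1 and 2 of the 9 members. Each table sets 1 library against 1 library.

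Over all 6 libraries, passage 1 was compared with passages 2 to 6 by edgeR's quasi-likelihood test, with the 5 later passages as the replicates of one group and passage 1 assumed to vary like them. The test called 2103 of 8758 genes at an adjusted p under 0.05, or 24%. In the later passages 839 genes (9.58%) were called higher and 1264 (14.4%) lower. With limma on log2(FPKM + 1), which keeps the deposited scaling, the split was 1821 higher and 765 lower. In edgeR 0 of 9 members were called, and DESeq2 also called 0. At an unadjusted p under 0.05 edgeR had 2 of 9 members, beside 40.1% of all genes (3514 of 8758). The median log2 difference of the members was -0.15, beside 0.05 for all genes tested, and the median size regardless of sign was 0.44 beside 0.53.

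The members with an unadjusted p under 0.05 were TCONS_00013430 and cryptochrome DASH. The later passages stood 1.69 ± 0.68 log2 units (standard error) above passage 1 for TCONS_00013430, with an edgeR adjusted p of 0.109. For cryptochrome DASH (CCM_00774) the difference was -0.56 ± 0.23, adjusted p = 0.119 in edgeR. The clock gene CCM_01014 had -0.54 ± 0.33 (edgeR adjusted p = 0.262) and the photolyase CCM_00151 had 0.55 ± 0.43 (edgeR adjusted p = 0.377). None of these differences was called by this test once adjusted over all genes tested. With 1 library in passage 1, that does not show that the levels were equal. Once a trend with gene length was removed in edgeR, the difference was -0.15 for the clock gene and -0.35 for cryptochrome DASH. It was 0.85 for the photolyase and 1.64 for TCONS_00013430.

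Among the others, the log2 difference was -0.35 ± 0.23 for CCM_00987, -0.44 ± 0.75 for TCONS_00013487, 0.16 ± 0.25 for CCM_02392, -0.15 ± 0.38 for CCM_06728 and 0.01 ± 0.16 for CCM_08046. Their edgeR adjusted p-values ran from 0.294 to 0.981. The sign of the difference for CCM_06728 and CCM_08046 turned under other scalings. For CCM_00987 the difference was -0.80 (adjusted p = 0.0484) once a trend with gene length was removed in edgeR, and for TCONS_00013430 it was 1.75 (adjusted p = 0.0492) with limma on log2(FPKM + 0.1).

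**Figure D2:**
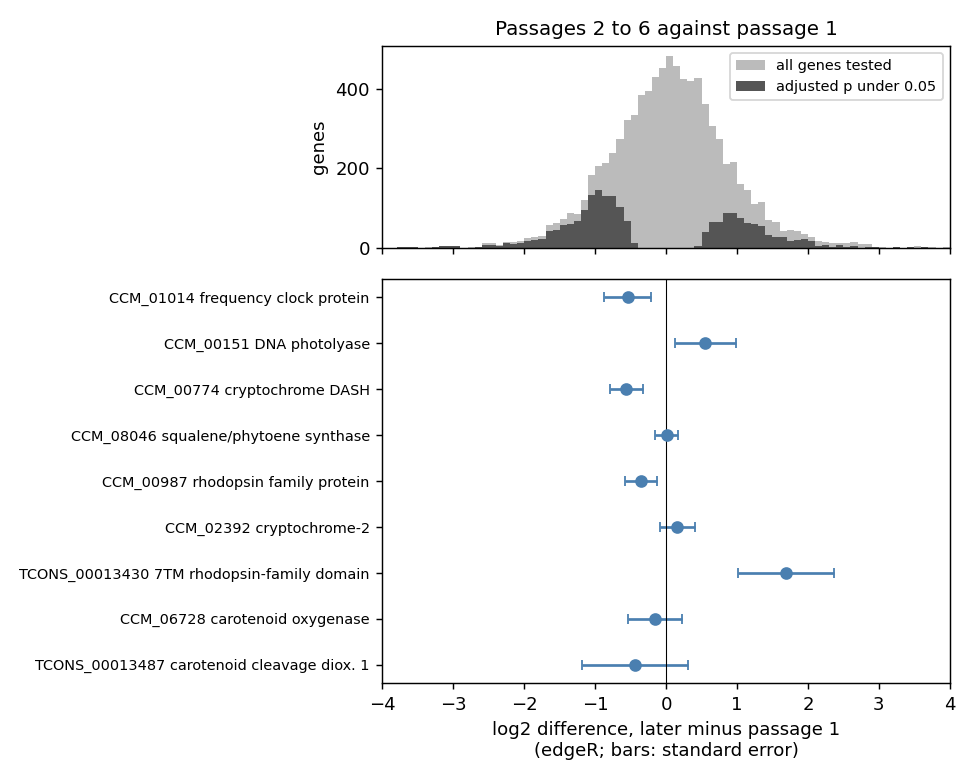
Histogram of the log2 difference between passages 2 to 6 and passage 1 for the 8758 genes tested (51 genes beyond 4 log2 units are not drawn), with called genes in dark grey, above the same difference for each member with its standard error. The 9 members lie between -0.56 and 1.69, and none is among the called genes.

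A trend with passage number was called for 0 of 8758 genes by edgeR (0%) and for 56 by DESeq2. At an unadjusted p under 0.05 edgeR had 1129 genes, or 12.9%, and 0 of the 9 members. The slopes of the members lay between -0.11 log2 units per passage for cryptochrome DASH (standard error 0.06) and 0.10 for the photolyase (0.09).

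Passage 6 lay above the range of passages 2 to 5 by FPKM for 4 of 9 members, where 26.6% of genes did so. They were the clock gene (239 against 123 to 205), the photolyase (157 against 73.1 to 138), CCM_00987 (21.9 against 15.8 to 20.8) and TCONS_00013487 (1.90 against 0.58 to 1.33). It lay below that range for TCONS_00013430 (1.98 against 2.57 to 5.72), where 27.5% of genes did so. For the remaining 4 members passage 6 was within the range. Passage 1 in turn lay below all 5 later libraries by FPKM for 4 members, where 48.1% of genes did so, and above them for cryptochrome DASH, where 23.9% did. On TMM-scaled counts it lay below them for TCONS_00013430 alone, where 35.4% of genes did so, and above them for the clock gene, cryptochrome DASH and CCM_00987, where 33.8% did. Passage 6 lay above passages 2 to 5 on that scale for the 4 genes named and for cryptochrome-2, with a background of 27.5%.

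Passages 3 and 5 were the 2 lowest of the 5 later libraries for 5 members by FPKM, a pattern chosen after the values were seen. They were the clock gene, the photolyase, cryptochrome DASH, CCM_08046 and CCM_00987. The same order held for 14.7% of the 8483 genes. Among the tested genes of the lists described further on, it held for 7 of 19 in isoprenoid supply, 2 of 6 in chromophore supply, 1 of 9 clock and light partners, 2 of 8 in light-independent repair and 4 of 7 in conidiation. The conidiation gene CCM_05444, named for AbaA, had 52.4, 31.05, 81.0, 39.2 and 94.0 FPKM in passages 2 to 6, and the summed FPKM of the conidiation list was lowest in passages 3 (300.0) and 5 (318). The part of these genes in the members' order was not tested. On TMM-scaled counts it held for 4 members, without CCM_08046, and for 15.1% of genes. With the length trend removed it held for 5 members and 14.4% of genes. The UV-damage endonuclease CCM_03240, which cuts ultraviolet lesions without light and was also picked after its values were seen, had 20.9, 21.3, 8.10, 13.1, 10.7 and 22.4 FPKM.

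Across the 6 libraries the log2 TMM-scaled level of the clock gene had a Pearson r of 0.93 with cryptochrome DASH, 0.90 with CCM_00987 and 0.46 with the photolyase. It had an r of -0.77 with TCONS_00013430. These points share their libraries and scaling, and 6 libraries of one lineage are not independent samples, so the values describe the libraries.

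Among 6045 genes with a named product and a mean FPKM of at least 10, the levels most like those of the clock gene over the 6 libraries were those of CCM_04456, a nucleotide-binding protein (r = 0.995), CCM_01458, the RNA helicase Dbp8 (0.988), and CCM_09089, a class 2 lipase (0.985). The lipase had 161, 120, 79.0, 112, 72.8 and 166 FPKM. For TCONS_00013430, they were CCM_08485, the glutaminase GtaA (0.996), CCM_09252, a vesicle-associated membrane protein (0.993), and CCM_09329, a regulator of G protein signalling (0.991). CCM_09329 had 50.2, 201, 392, 289.85, 194 and 141 FPKM.

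The junction tables, which give reads across each splice junction, offered another readout of the same libraries. The authors list junctions with at least 5 reads. The photolyase intron of 53 bases had 257, 809, 356, 650, 455 and 1035 reads. The 77-base intron of cryptochrome DASH had 599, 638, 306, 407, 268 and 478, and the 73-base coding intron of the clock gene had 1538, 1795, 812, 1227, 841 and 1617. Per 1000000 junction reads, the photolyase intron ran from 45.1 in passage 1 to 112 in passage 6, the cryptochrome DASH intron from 105 in passage 1 to 31.5 in passage 5, and the clock intron from 270.01 in passage 1 to 98.8 in passage 5. Passages 3 and 5 were the lowest later libraries for these 3 introns, but not for the other 2 members with this order by FPKM. The most-read intron of CCM_08046 had 30.1, 23.2, 19.1, 22.8 and 24.3 reads per 1000000 junction reads in passages 2 to 6, lowest in passages 4 and 5. That of CCM_00987 was lowest in passages 5 (80.5) and 2 (88.7). Over the 5623 genes with a mean FPKM of at least 1 and a junction listed in every library, 13.6% had passages 3 and 5 lowest by this measure.

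**Figure D3:**
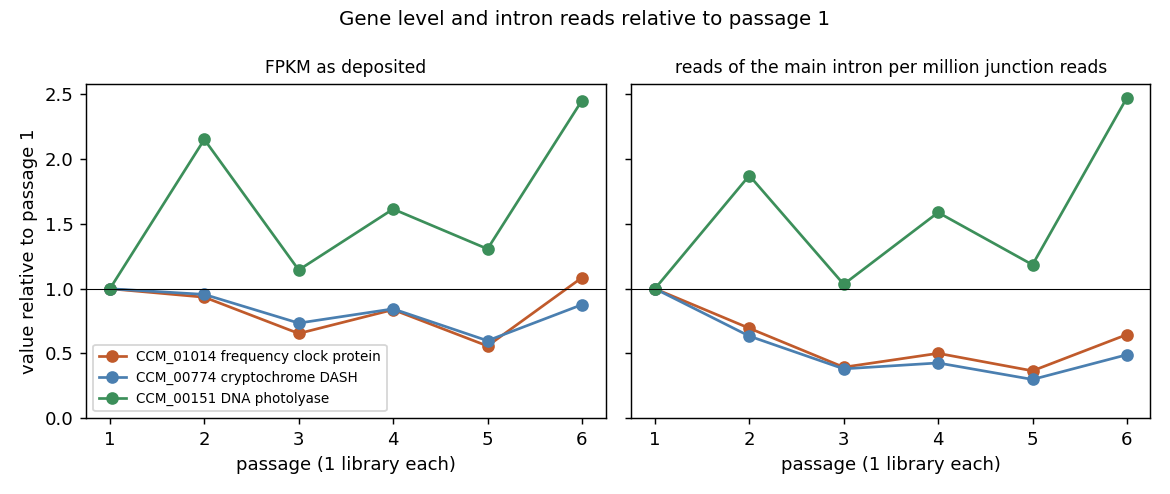
Values relative to passage 1 (no units) against passage, 1 library per point, for FPKM on the left and for reads of each gene's most-read intron per 1000000 junction reads on the right. The photolyase stays at or above its passage 1 value in both panels, and the other genes dip at passages 3 and 5.

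For 7 members a junction was listed. The most-read junction of the photolyase had 0.18 to 0.21 reads per expected count of the gene, and that of the clock gene had 0.17 to 0.25. For cryptochrome DASH this ratio was 0.31 in passage 1 and 0.19 to 0.25 later, and for CCM_08046 it was 0.80 in passage 1 and 0.42 to 0.62 later. The median over all genes with a junction and at least 10 counts was also highest in passage 1, at 0.313, beside 0.28 to 0.296 later.

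The rhodopsin family gene CCM_00987 had more junction reads than expected counts. A 60-base intron inside its annotated exon had 972, 849, 679, 905, 685 and 903 reads, while the whole gene had expected counts of 121, 150, 116, 166, 120 and 184. The junction thus had 4.91 to 8.03 reads per count, a ratio above that of 96.9% to 98.1% of genes. Between 13.6% and 15.6% of genes had more junction reads than counts, so the junction and count tables do not share one read total for these genes. The level and the difference of CCM_00987 taken from counts are therefore uncertain. Per 1000000 junction reads its intron had 171 in passage 1 and 80.5 to 99.8 in the later passages.

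**Figure D4:**
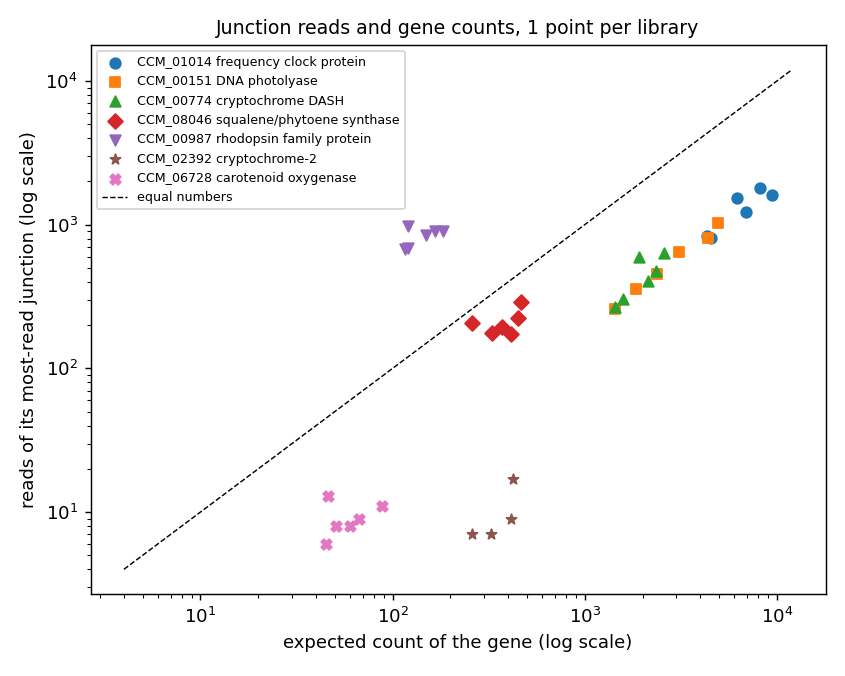
Reads of the most-read junction against the expected count of the gene, both on log axes, 1 point per library and member with a listed junction; the dashed line marks equal numbers. The 6 points of CCM_00987 lie above the line and those of every other member below it.

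Near that intron the variant and editing tables hold several calls. A change Q100H (positions counted from the start of the annotated protein) was listed as an editing event in passages 2, 4 and 5, on 3 of 11, 8 of 19 and 3 of 18 reads. Its base is the end base of the 60-base intron, and a frameshift call, V102fs, lies 4 bases from the intron's end. V102fs had 4, 10 and 4 alternative reads in passages 2, 4 and 5 and 0 in passages 1, 3 and 6. Whether spliced reads bear on these calls was not tested. The photolyase held the other listed events in members, L768F in passages 2 and 5 and C767F in passage 5, each on 4 or 5 reads. In all, 6 of 11304 listed events fell in members, at 3 sites. Each of the 6 was listed as a G to T change.

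The 5′ end of the clock gene was spliced across its annotated first base. In Neurospora the leader of the frequency transcript is alternatively spliced, which is background and not a result here. The authors extend CCM_01014 by 666 bases in 2 segments, lying 0 to 221 and 415 to 860 bases upstream of the annotated start. The median 5′ extension over 2010 extended genes was 273 bases. Cryptochrome DASH has 905 bases, also in 2 segments.

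Junctions listed at the start of CCM_01014 remove 83 bases and include the annotated first base. By the coding positions of the listed variants, that base also begins the annotated coding sequence, so these junctions remove the annotated start codon. One removes 8 annotated bases and 75 upstream of them, with 40, 89, 26, 32, 31 and 71 reads. The other, shifted by 2 bases, was listed in passages 1, 4 and 6 with 49, 15 and 34 reads. A 134-base version had 5 reads in passage 4. Together they had 5.79, 4.96, 3.20, 4.24, 3.69 and 6.49 reads per 100 reads of the coding intron. The sums rest on 89, 89, 26, 52, 31 and 105 reads of these start junctions. A junction with fewer reads than the listing minimum counts as 0 in them, so the order of the lower values, in passages 3, 4 and 5, is uncertain.

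**Figure D5:**
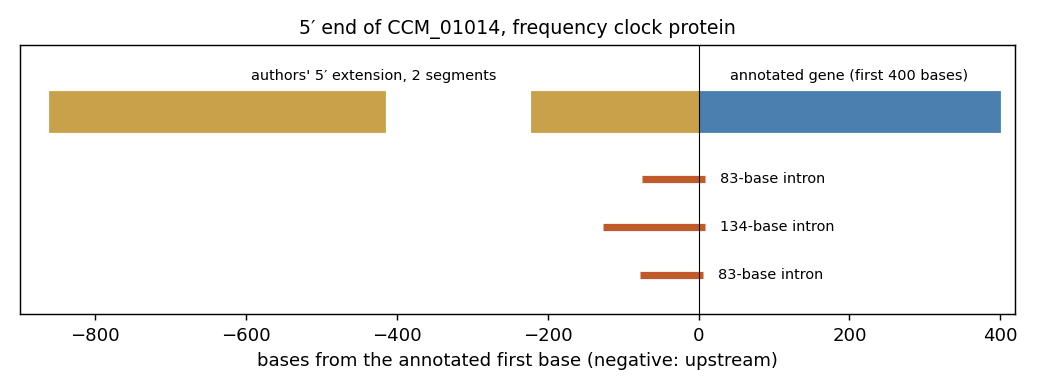
Map of the 5′ end of CCM_01014 by distance in bases from the annotated first base. The annotated gene is in blue, the authors' extension in yellow and each intron listed at the start in orange. The 83-base introns and the 134-base intron all cross the annotated start.

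The YCC strain differed from the reference genome in most members. A site was counted as fixed where every library had at least 10 reads and at least 0.9 of them were alternative. The photolyase held 9 fixed nonsynonymous and 7 fixed synonymous sites, and 99.1% of the 5745 reference genes with at least 100 counts in every library had fewer nonsynonymous ones. Per kilobase it had 3.88, above 98.5% of those genes. The median gene had 1 nonsynonymous and 4 synonymous sites.

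Cryptochrome-2 held 5 fixed nonsynonymous sites and 0 fixed synonymous ones, with 93.2% of genes below it in nonsynonymous sites. Per kilobase it had 1.85 nonsynonymous sites, above 85% of genes. Of its 17 exonic sites, 5 had the read depth for this count. Its listed synonymous sites lacked that depth, so the 0 does not show that it has none. The clock gene had 1 nonsynonymous site, V355L, and 4 synonymous ones, cryptochrome DASH 1 and 6, CCM_08046 2 and 4, and CCM_06728 1 and 0. Of the 9 exonic sites of CCM_06728, 1 had the read depth for this count. Its 0 thus does not show that it has no synonymous sites. CCM_00987 had 1 nonsynonymous site, A198D, and a fixed frameshift, M33fs. Such a frameshift was found in 1.71% of the genes. In the 2 new genes, where the tables give no effect on protein, 5 of 12 listed sites of TCONS_00013430 and 3 of 13 of TCONS_00013487 were called alternative in all 6 libraries. Since all libraries carried the same base, these sites separate the strain from the reference and not one passage from another.

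The photolyase CCM_00151 lies on scaffold NW_006271969.1 from 515043 to 517846, minus strand, in the coordinates of the deposited tables. The authors extend its 3′ end by 650 bases, and the next reference gene, the 40S ribosomal protein S21 gene CCM_00150, lies inside that stretch. In RefSeq's gene table its 369-base span starts after a gap of 232 bases from the photolyase. CCM_00150, picked after its values were seen, rose by 1.11 ± 0.27 log2 units (edgeR adjusted p = 0.0261). Whether counting used strand is not stated in the sources used, so reads of overlapping genes cannot be told apart. On the same scaffold, cryptochrome DASH spans 2460582 to 2462666 (plus strand), CCM_00987 spans 3063891 to 3064933 and the clock gene 3156593 to 3159554 (both minus strand). Cryptochrome-2 spans 1480857 to 1483782 on scaffold NW_006271970.1 (plus strand) and the carotenoid oxygenase 1103774 to 1106733 on NW_006271973.1 (minus strand). On scaffold NW_006271974.1, TCONS_00013430 spans 2455002 to 2456373 and TCONS_00013487 spans 2752826 to 2754109, both on the minus strand.

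The genes around the members were read from lists matched by product words. Isoprenoid supply, which makes the prenyl chains for carotenoids and sterols, held 20 genes, of which 19 were tested and 2 rose and 2 fell between passage 1 and the later passages by edgeR. Over all genes 9.58% rose and 14.4% fell, 24% together, the background for each list here. With passage 3 left out the calls of this list were 2, and without passage 4 or 5 they were 1. The list's median log2 difference was -0.06, beside 0.05 for all genes. The words also matched genes that use prenyl chains, such as a squalene monooxygenase and a sesquiterpene cyclase. The calls and the median are thus not those of prenyl supply alone. Other genes named for geranylgeranyl pyrophosphate synthase had differences of both signs and were not called. CCM_06355 (mean FPKM 11.7) differed by 0.43 ± 0.24, CCM_00047 (0.48) by 0.89 ± 0.79 and CCM_03059 (1.88) by -0.74 ± 0.51, all picked after their values were seen. CCM_03697, a geranylgeranyl pyrophosphate synthetase, which makes the chain that phytoene synthase joins, had 168 FPKM in passage 1 and 78.6 to 135 later and fell by 0.95 ± 0.26 (edgeR adjusted p = 0.0387). CCM_00310, the hydroxymethylglutaryl-CoA synthase of the mevalonate pathway, had 331 FPKM in passage 1 and 207 to 275 later and fell by 0.75 ± 0.19 (edgeR adjusted p = 0.0317). CCM_05188, hydroxymethylglutaryl-CoA lyase, an enzyme of leucine breakdown rather than of prenyl supply, rose by 1.07 ± 0.27, and CCM_06843, named for prenyltransferase and squalene oxidase, rose by 0.96 ± 0.22. With the length trend removed CCM_05188 lost its call (edgeR adjusted p = 0.0566).

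Chromophore supply held 6 genes matched by riboflavin and flavin words, since photolyases, cryptochromes and white collar proteins carry flavin cofactors. Of these, CCM_03966 and CCM_08034 are named only for a riboflavin synthase-like barrel, a fold that flavin-using reductases share, so the list is not one of synthesis enzymes alone. By edgeR 2 rose and 0 fell, beside 9.58% and 14.4% of all genes, with a median of 0.51. The calls were 1 without passage 2, 3 or 4 or without the expression filter, and 0 without passage 5. CCM_06814, lumazine synthase, had 22.9 FPKM in passage 1 and 43.1 to 55.25 later and rose by 0.87 ± 0.20 (edgeR adjusted p = 0.0222). CCM_03966, one of the barrel genes, rose by 0.86 ± 0.25 (edgeR adjusted p = 0.0462). Both short genes lost the call once the trend with gene length was removed, at 0.43 and 0.65 (edgeR adjusted p = 0.192 and 0.0983). The medium of every culture contained riboflavin.

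Clock and light partners held 10 genes, of which 9 were tested, and edgeR called 2 up and 2 down, beside 24% of all genes, with a median of 0.06. The calls were 2 with the limma fits, with upper-quartile scaling, with the length trend removed or without passage 2, 3 or 5, and 1 without passage 4. In Neurospora, casein kinases phosphorylate FREQUENCY and protein phosphatase 2A acts against them. CCM_00018, casein kinase 1 delta, had 51.7 FPKM in passage 1 and 111.5 to 154 later and rose by 1.10 ± 0.21 (edgeR adjusted p = 0.0131). CCM_04103, the casein kinase II alpha chain, fell by 0.52 ± 0.15 (edgeR adjusted p = 0.0422) and CCM_07893, a protein phosphatase 2A, fell by 0.75 ± 0.19 (edgeR adjusted p = 0.0300). CCM_01273, a casein kinase substrate, rose by 0.57 ± 0.15 (edgeR adjusted p = 0.0320). For CCM_07893 and CCM_01273 the call was lost with the length trend removed (edgeR adjusted p = 0.124 and 0.332).

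Light-independent repair of ultraviolet damage held 8 genes, with 1 up, 1 down (24% of all genes were called) and a median of -0.08 by edgeR. CCM_00249, a DNA excision repair protein, had 7.14 FPKM in passage 1 and 22.4 to 30.9 later and rose by 1.62 ± 0.24 (edgeR adjusted p = 0.00627). CCM_02391, the excision repair factor Rad23, had 86.7 FPKM in passage 1 and 54.75 to 65.1 later and fell by 0.77 ± 0.15 (edgeR adjusted p = 0.0131). CCM_02391 is the reference gene next to cryptochrome-2, whose own difference was 0.16. Its call was lost with the length trend removed (edgeR adjusted p = 0.153).

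Spores are the other cell type that a mycelial culture could hold, and genes matched by conidiation words served as their markers. Of the 9, CCM_07158, is the para-aminobenzoate synthase PabaA, an enzyme of folate synthesis that the word AbaA caught inside its name, and no conidiation marker. Of the 9 genes, 7 were tested, and edgeR called 1 up and 3 down, beside 24% of all genes, with a median of -0.94. Without CCM_07158 the same 4 of 6 tested genes were called and the median was -1.01. CCM_05444, named for AbaA, a regulator of conidiophore development in Aspergillus, had 232 FPKM in passage 1 and 31.05 to 94.0 later and fell by 2.21 ± 0.49. CCM_00714, conidiation-specific protein 13, had 53.35 FPKM in passage 1 and 2.99 to 14.7 later and fell by 2.98 ± 0.64. CCM_02232, a conidiation transcription factor, fell by 1.08 ± 0.20, and CCM_07465, named for hymA, rose by 1.05 ± 0.27 (all 4 with edgeR adjusted p between 0.0130 and 0.0328). With the length trend removed CCM_05444 and CCM_07465 lost the call (edgeR adjusted p = 0.0524 and 0.0620). Other genes of the list, picked after their values were seen, went the other way at low levels. CCM_06097, also named for AbaA, had 2.83 FPKM in passage 1 and 3.60 to 4.88 later, a log2 difference of 0.33. CCM_05902, a conidiation-specific expression protein that was not tested, had 0 FPKM in passage 1 and 0.76 to 2.72 later. The summed FPKM of the list was 557 in passage 1 and 300.0 to 452 later. Without CCM_07158, left out after the values were seen, the sum was 340.1, 109, 98.6, 155, 103 and 163 in passages 1 to 6. With or without that gene, passage 1 stood above each later library. CCM_05444 alone had 232 of the 340.1 in passage 1. In passage 1, 2 of 9 genes were at 0, and 0 or 1 later. The part of this difference in the members' values was not tested.

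CCM_04514, annotated as LreA, the Aspergillus nidulans name of the white collar 1 counterpart, fell outside the rule because of its wording and was picked after its values were seen. It had 201.5, 245, 288, 364.5, 283 and 353 FPKM, above the clock gene in 5 of 6 libraries. Its log2 difference was 0.36 ± 0.22 (edgeR adjusted p = 0.274), and its r with the clock gene over the 6 libraries was -0.12.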

How the data were processed

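Poly(A) RNA of 6 libraries, 1 per passage, was read from the authors' deposited tables. Per the file headers the expression table gives expected counts, which were not normalised, and FPKM. The submitters' processing notes name edgeR, Cufflinks, TopHat2, Bowtie and FastQC, with no role, version or setting. Other deposited values are the authors' log2 ratios, with p-values and FDR from 1 library against 1, junction read counts, editing frequencies as a fraction of reads, a quality score per variant with allele read numbers, and gene model coordinates. A further 46 per-sample columns were not used.

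Expected counts were rounded and scaled by TMM. edgeR 4.0.16 (quasi-likelihood, two-sided, Benjamini-Hochberg at 0.05 over 8758 genes passing its expression filter; all 9 members passed) tested passage 1 against passages 2 to 6 and a slope over passages. Alternatives used DESeq2 1.42.0 and limma 3.58.1 in R 4.3.3. Ratios used log2 counts per scaled library size with a prior count of 1, and 95% exact binomial intervals cover counting error only. With 1 library per passage, p-values of passage 1 against passages 2 to 6 rest on the spread among the later libraries. Those of the slope rest on the spread of all 6 libraries around a line. The libraries come from one lineage. RefSeq's gene table matched 9651 locus tags and gave names and gene order.

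Members, lists and tests were chosen with earlier results of these data known. Named genes were all members, the called genes of each list up to 4 by smallest p, and the 3 genes most like the most abundant and the most variable member; genes outside this rule are marked where they occur.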

Additional observations from a re-analysis of the deposited data

How the results depend on the processing

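No paired analysis was possible because each passage has 1 library and all carry the replicate number 1. No member was called in the edgeR trend test with any single library left out. In the edgeR test of passage 1 against passages 2 to 6, passage 1 itself was never left out. With any single later library left out, no member was called in it. For passage 1 against passages 2 to 6 the members called were 1 with limma on log2(FPKM + 0.1) and 1 with the length trend removed, and all genes called ran from 1380 to 2534 with a library left out (1380 without passage 5). The trend gave 56 genes with DESeq2 and 0 with every other alternative, 0 to 0 with a library left out.

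Differences changed sign for CCM_08046 (-0.0118 with DESeq2, -0.132 with the length trend removed, -0.0228 to 0.0318 with a library left out) and CCM_06728 (0.0496 with limma on log2(FPKM + 1) with or without the filter, 0.0583 with a pseudocount of 0.1, 0.0765 with the length trend removed, 0.0686 with upper-quartile scaling). Slopes per passage changed sign for CCM_01014 (0.00579 with the length trend removed; -0.232 to 0.0313 with a library left out), CCM_08046 (-0.00374 with DESeq2, -0.0235 with the length trend removed; -0.0222 to 0.0143) and CCM_00987 (0.0118 with limma on log2(FPKM + 1) with or without the filter, 0.0122 with a pseudocount of 0.1, 0.0148 with upper-quartile scaling; -0.0945 to 0.0566). With a library left out they also did for CCM_00151 (-0.0337 to 0.187), TCONS_00013430 (-0.204 to 0.282), CCM_06728 (-0.0232 to 0.105) and TCONS_00013487 (-0.309 to 0.141). The cause was not tested.

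List calls also moved with the length trend removed: chromophore supply 0, clock and light partners 2, light-independent repair 1, conidiation 2. Without the filter chromophore supply had 1, and with the limma fits or upper-quartile scaling clock and light partners had 2. With a library left out the calls were 1 to 4 for isoprenoid supply (2 without passage 3, 1 without passage 4 or 5), 0 to 2 for chromophore supply (1 without passage 2, 3 or 4, 0 without passage 5), 1 to 4 for clock and light partners (2 without passage 2, 3 or 5, 1 without passage 4), 2 to 2 for repair and 3 to 4 for conidiation. Leaving CCM_07158 out of the conidiation list, an alternative also added after seeing the data, left 4 calls. Members at least 2-fold from passage 1 numbered 1 in passages 3, 4 and 5 with log2(FPKM + 1), and with the length trend removed 2 in passage 2 and 1 in passage 5. The order with passages 3 and 5 lowest, an alternative chosen after seeing the data, held for 5 members with the length trend removed.

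Depth limits the genes with few reads: TCONS_00013430 had 11 counts in passage 1 and TCONS_00013487 had 8 to 31 counts per library, so their ratios carry wide counting intervals. By Dixon's criterion, 0 of 9 members had a single later library that stood apart in FPKM.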
